A study of Ovis aries with 16 samples.

Results

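The VEGF family was described in peripheral lung of 3-day-old lambs through 10 genes: the ligands VEGFA, VEGFB, VEGFC, VEGFD and PGF, the receptors FLT1, KDR and FLT4, and the co-receptors NRP1 and NRP2. Its members are all 17 probe sets to which the platform's annotation gives 1 of these symbols and no other, of 24016 probe sets tested (10 of 9155 named genes), and each was kept apart. Of the genes, 4 had 1 probe set and 6 had several. The study measured lung RNA of 8 control and 8 shunt lambs on 1 array each. Per the labels, shunt lambs, which model heart defects that raise blood flow to the lung, had a graft, 8.0 mm wide and 2 mm long, placed in utero between ascending aorta and main pulmonary artery. The controls came from sham surgery, and both operations took place 9 ± 6 days before term. No genotype, drug or strain is given in the labels for either group. The array probes are bovine and the RNA is ovine, so a sequence difference can lower a signal. Nothing in the labels ties arrays to single animals beyond the number in each title. Each array was taken as 1 lamb, and p-values measure the spread between these arrays.

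VEGF ligands are secreted dimers that bind receptor tyrosine kinases on endothelial cells. VEGFA acts through KDR (VEGFR2), the main signalling receptor for endothelial growth and permeability, and binds FLT1 (VEGFR1), which also exists as a soluble decoy. PGF and VEGFB bind FLT1, while VEGFC and VEGFD act through FLT4 (VEGFR3) on lymphatic and some blood vessel endothelium. The neuropilins bind both VEGF isoforms and class 3 semaphorins. In lung, VEGFA is made largely by alveolar epithelium and is needed to form and keep the capillary bed. A bulk RNA level cannot tell fewer cells of a type from less RNA per cell.

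Facts of the arrays that touch these values came first. Array medians were 7.158 ± 0.016 (SD, n = 8) in control and 7.135 ± 0.009 in shunt lambs (exact permutation p = 0.000777, two-sided), and the median difference over all 24016 probe sets was -0.01 log2. The array of control replicate 2 correlated least with the others (mean r = 0.983), and the remaining 15 were at 0.990 to 0.993. The bacterial poly-A control probe sets, which are dim, averaged 4.27 ± 0.10 (SD, n = 8) in control and 4.20 ± 0.01 in shunt lambs (exact permutation p = 0.00218, two-sided). The dimmer probe sets of VEGFD, FLT1, KDR, FLT4 and NRP2 were lower in shunt as well, by values given below, although those of VEGFD and FLT4 turned sign without control replicate 2. The part of these differences in the results below was not tested beyond the values without control replicate 2 and with centred medians. The tissue label was checked against lung markers. A probe set each of the surfactant genes SFTPB and SFTPA1 read 12.69 and 10.88 (log2 signal, control means). The brightest SFTPA1 probe set had a mean of 12.74 over all arrays. The brighter PECAM1 probe set, an endothelial marker, read 12.50 (control mean).

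No VEGF family probe set passed the test. At an adjusted p under 0.05 (limma, Benjamini-Hochberg over all probe sets) 0 of 17 were called, beside 17 of 24016 probe sets in all, or 0.0708% (0.0666% higher and 0.00416% lower in shunt). At an unadjusted p under 0.05, 2 of 17 were lower in shunt (11.8%) and 0 were higher, beside 7.32% lower and 6.42% higher among all probe sets. These 2 were the brighter VEGFA probe set and the dimmer NRP2 probe set. The median difference of the 17 was -0.03 log2, with shunt higher in 6 and lower in 11 of them. Of all 24016 probe sets, 10784 were higher and 13232 lower. Centring the array medians made the counts of the 17 members 8 and 9. Control and shunt values overlapped in 17 of 17, while 0.142% of all probe sets had groups that did not overlap. The 95% confidence intervals of the 17 differences lay between -0.45 and 0.36 log2.

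**Figure D1:**
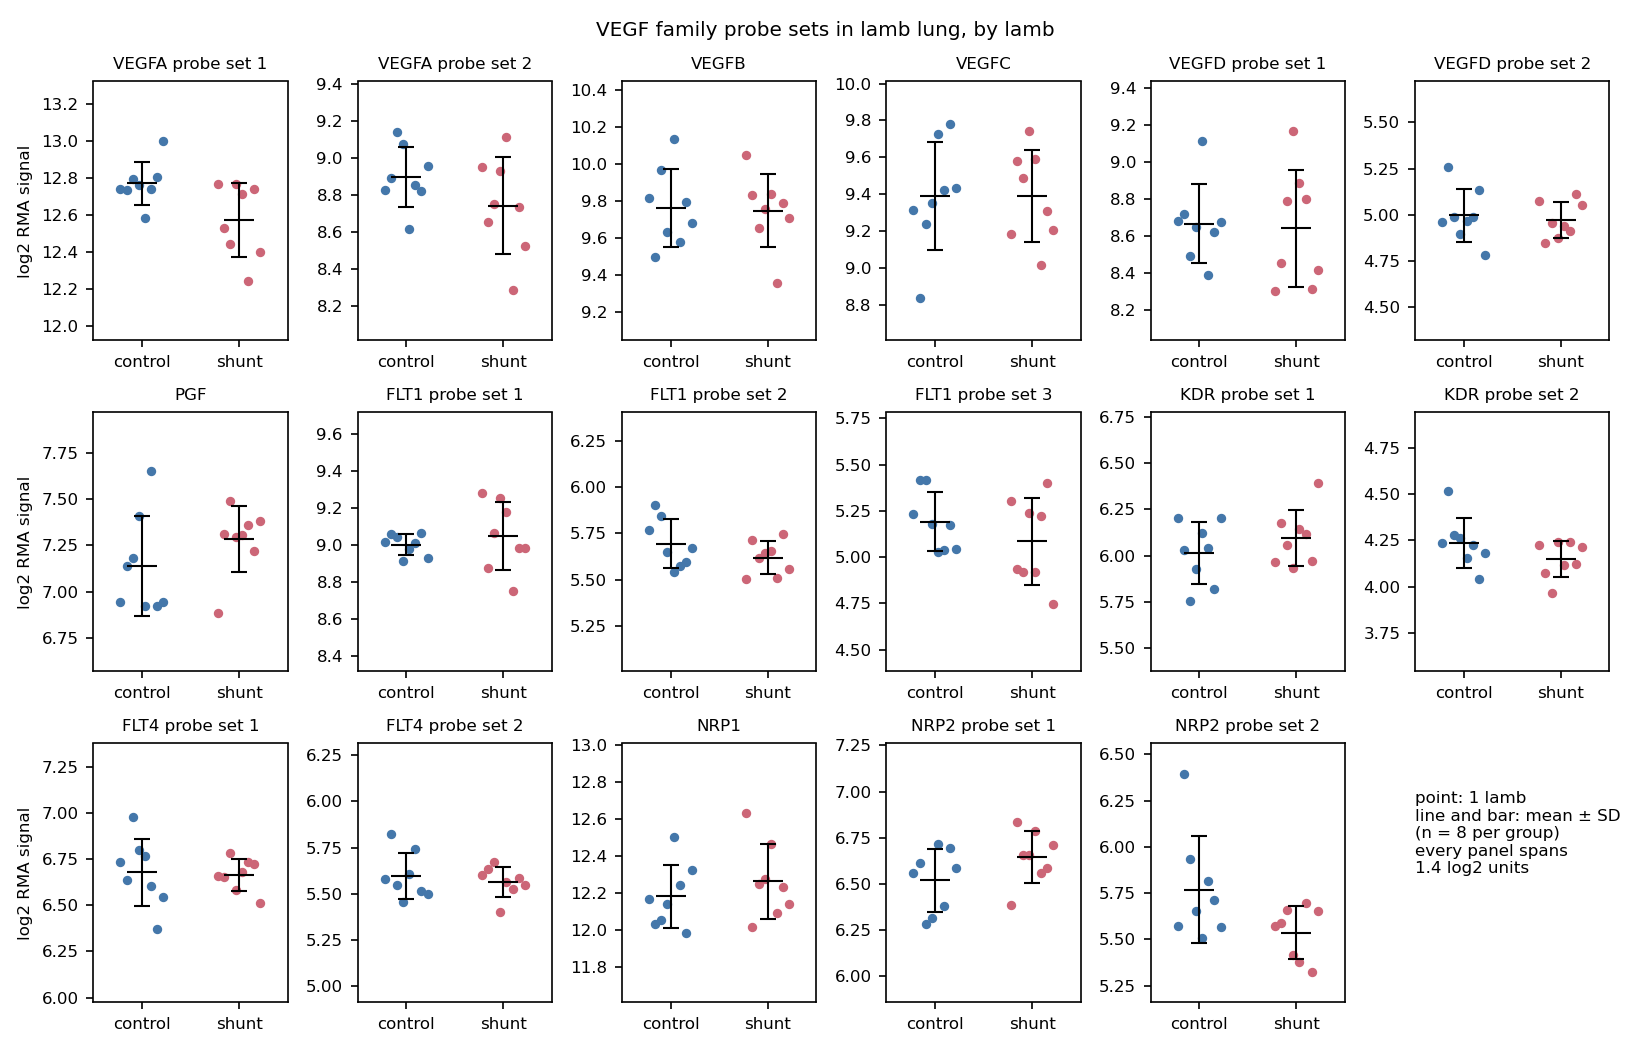
Log2 signal (vertical axis) of each VEGF family probe set in every lamb, control in blue and shunt in red, with mean ± SD (n = 8 per group); every panel spans the same 1.4 log2 units. The groups overlap in each of the 17 panels. In the brighter VEGFA probe set 4 shunt lambs lie below every control lamb.

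Among the ligands, VEGFA, the main endothelial growth factor of the family, had the smallest p of the 17 probe sets. Its brighter probe set (Bt.4138.2.S1_at, probe set 1) read from 12.58 to 12.998 in control lambs, with a median of 12.75, and from 12.24 to 12.76 in shunt lambs, with a median of 12.62. Shunt replicates 2, 3, 6 and 8 lay below every control lamb, and the other 4 shunt lambs, at 12.71 to 12.76, lay within the control range. All 8 shunt lambs were below the control mean. The control mean was 12.77 ± 0.12 (SD, n = 8) and the shunt mean 12.57 ± 0.20, a difference of -0.20 ± 0.08 (SE, log2; 95% interval -0.36 to -0.03), or 0.873-fold. It did not pass over all probe sets (limma adjusted p = 0.302, exact permutation p = 0.0255). The dimmer VEGFA probe set (Bt.4138.1.S1_a_at, probe set 2) read 8.90 ± 0.16 in control and 8.74 ± 0.26 in shunt lambs, a difference of -0.15 ± 0.10 (limma adjusted p = 0.493). There 5 of 8 shunt lambs were below the control mean, and replicates 6 and 8 again below every control. Without shunt replicate 6 the difference was -0.09.

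PGF, a ligand of FLT1 known from placenta and from growth of vessels under load, had the largest positive difference of the 17. It read from 6.92 to 7.65 in control (median 7.04) and from 6.89 to 7.49 in shunt lambs (median 7.31). Shunt lambs lay at 7.22 or above in 7 of 8 cases, and shunt replicate 1, at 6.89, lay below every control. The difference was 0.14 ± 0.10 (SE, log2; 95% interval -0.08 to 0.36; limma adjusted p = 0.539), 0.20 ± 0.10 without shunt replicate 1 (limma adjusted p = 0.359) and 0.22 without control replicate 6. Control lambs split for PGF as well, with 4 at 6.92 to 6.94 and control replicates 6 and 4 at 7.65 and 7.41. XIST, an RNA of female cells, was at 5.29 to 5.62 or at 7.01 to 8.01. Control replicates 3, 4 and 6, with the highest PGF of the controls, had the higher XIST level. Shunt replicates 1, 4, 5 and 8, with the lower level, had PGF from 6.89 to 7.38, and the other shunt lambs from 7.22 to 7.49. With XIST as a covariate the PGF difference was 0.13 ± 0.09 (SE, limma adjusted p = 0.501).

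The remaining ligands showed differences near 0 with wide intervals. VEGFB, a ligand of FLT1 linked to fatty acid handling, had means of 9.76 ± 0.21 (SD, n = 8) for control and 9.75 ± 0.20 for shunt lambs, a difference of -0.01 log2 (95% interval -0.21 to 0.18). The lymphatic growth factor VEGFC was 9.39 ± 0.29 and 9.39 ± 0.25, a difference of 0.00092 (95% interval -0.26 to 0.26). Its spread between lambs was at percentile 91.6 of all probe sets, with control replicate 2 the lowest lamb at 8.84. VEGFD, the other lymphatic ligand, had a brighter probe set (Bt.13096.1.S1_at) at 8.67 ± 0.21 and 8.64 ± 0.31 and a dimmer one (Bt.13096.1.A1_at) at 4.998 ± 0.14 and 4.97 ± 0.10, with a difference of -0.03 in both. The brighter VEGFD values of shunt lambs ran from 8.30 to 9.17, with 1 lamb above and 2 below the whole control range. For VEGFB, VEGFC and both VEGFD probe sets the sign turned under at least 1 other scaling, weighting or array left out, so no direction can be given for them.

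**Figure D2:**
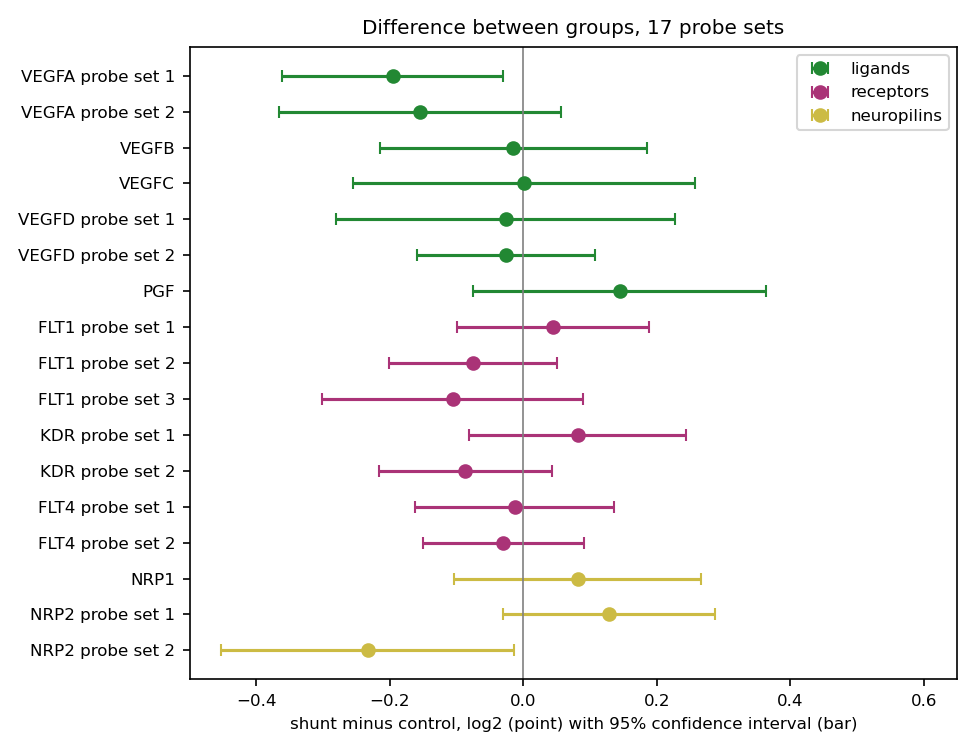
Difference between shunt and control lambs (log2, horizontal axis) for each of the 17 probe sets, with points for the estimate and bars for the 95% confidence interval (n = 8 per group), coloured by role. The intervals of the brighter VEGFA and the dimmer NRP2 probe sets do not reach 0, at -0.36 to -0.03 and -0.45 to -0.01, and the other 15 include it.

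FLT1, the receptor that binds VEGFA, VEGFB and PGF, had 3 probe sets. The brightest (Bt.26391.1.A1_at) lay from 8.91 to 9.06 in control lambs (median 9.01) and from 8.75 to 9.28 in shunt lambs (median 9.02). The control lambs were tightly grouped, and of the shunt lambs 4 lay above and 2 below every control. The means were 9.00 ± 0.06 (SD, n = 8) and 9.05 ± 0.18, a difference of 0.04 ± 0.07 (SE, limma adjusted p = 0.793). The wider spread in shunt lambs was noticed in the values and was not tested. The other FLT1 probe sets (Bt.13148.1.A1_at and Bt.13148.1.S1_at) were dim, at means of 5.66 and 5.14, and differed by -0.07 and -0.11 (limma adjusted p = 0.583 and 0.622). The dimmest was at -0.06 without shunt replicate 8.

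KDR, the main signalling receptor, was dim in both probe sets. The brighter one (Bt.29836.1.S1_at) read from 5.75 to 6.20 in control and from 5.93 to 6.39 in shunt lambs, a difference of 0.08 ± 0.08 (SE, limma adjusted p = 0.649). The dimmer one (Bt.29836.1.A1_at) had a mean of 4.19 and differed by -0.09 ± 0.06 (limma adjusted p = 0.531). Of the 27 probe sets for bacterial poly-A control RNAs, whose means ran from 3.75 to 5.49, 10 were at or above that level. FLT4, the receptor of VEGFC and VEGFD, had probe sets at means of 6.67 (Bt.16013.1.A1_at) and 5.58 (Bt.16013.1.S1_at), with differences of -0.01 ± 0.07 and -0.03 ± 0.06. Its brighter values ran from 6.37 to 6.98 in control and from 6.51 to 6.78 in shunt lambs, all 8 of the latter inside the control range. The sign of both FLT4 differences turned under at least 1 alternative. Signal over background is unknown for these dim probe sets, and a small difference there does not show an unchanged receptor.

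NRP1, a co-receptor that strengthens VEGFA signalling through KDR, was bright, and its groups overlapped widely. It read from 11.98 to 12.51 in control (median 12.16) and from 12.02 to 12.64 in shunt lambs (median 12.24), with shunt replicate 1 the highest. The difference was 0.08 ± 0.09 (SE, log2; limma adjusted p = 0.693). NRP2, the co-receptor linked to lymphatic vessels, gave opposite signs with its probe sets. The brighter one (Bt.10421.1.S1_at) had means of 6.52 ± 0.17 (SD, n = 8) for control and 6.65 ± 0.14 for shunt lambs, a difference of 0.13 ± 0.08 (SE, limma adjusted p = 0.453), with 7 of 8 shunt lambs above the control mean. The dimmer one (Bt.28407.1.A1_at) was 5.77 ± 0.29 and 5.54 ± 0.14, a difference of -0.23 ± 0.10 (limma adjusted p = 0.345), with 8 of 8 shunt lambs below the control mean. Control replicate 2 read 6.39 there against 5.93 for the next control, and without it the difference was -0.14 ± 0.07 (limma adjusted p = 0.468).

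Agreement between probe sets of 1 gene was examined in 8 pairs over 16 lambs, after each group's mean was removed. Only the VEGFA pair varied together from lamb to lamb, among the 8 tested (Pearson r = 0.78, permutation adjusted p = 0.0032; Spearman rho = 0.72, permutation adjusted p = 0.0182). Without the 2 lambs farthest from the median r was 0.73. The other 7 pairs had r from -0.32 (VEGFD) to 0.44 (the dimmer FLT1 probe sets), none past the threshold, with permutation adjusted p from 0.348 to 0.889 for r. KDR was at 0.04, FLT4 at 0.06 and NRP2 at -0.12. In the VEGFD, KDR and FLT4 pairs, and in the dimmer FLT1 pair, the identifiers share a cluster number and differ in the letter A or S. The sources used here do not give the strand that each detects. Within a pair the group difference had the same sign in 4 of 8, and a test of the difference between the 2 probe sets passed in 0 of 8 (exact permutation, adjusted over 8 pairs; 1 pair at an unadjusted p under 0.05). That pair was NRP2, where the probe sets differed by 0.36 log2 in their response (exact permutation p = 0.0270, adjusted p = 0.216).

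**Figure D3:**
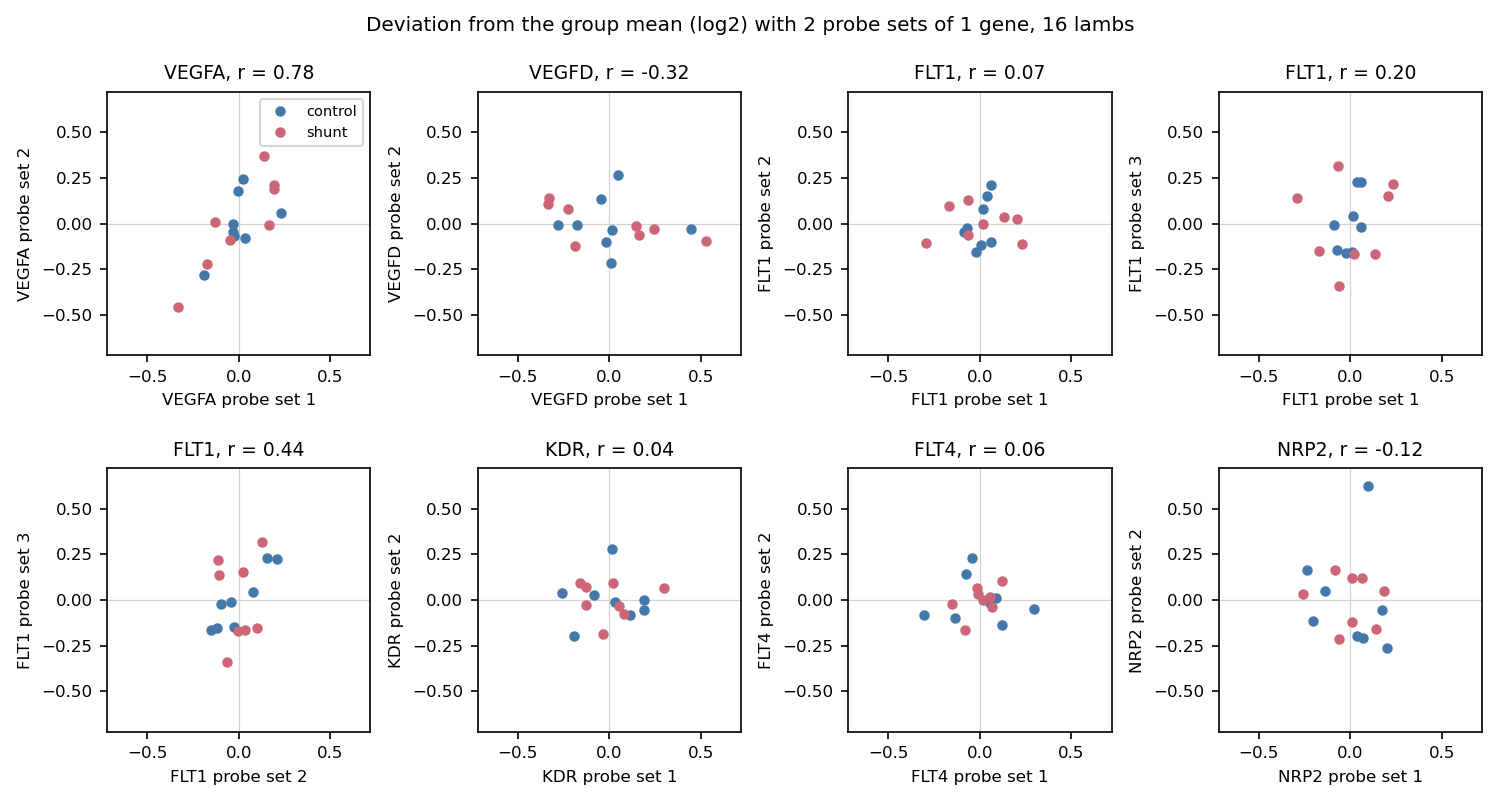
Deviation of each lamb from its group mean (log2) with 1 probe set of a gene (horizontal axis) against another (vertical axis), for the 8 pairs, control in blue and shunt in red. Points rise together for VEGFA (r = 0.78), while the other panels have r from -0.32 to 0.44.

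Members were also set against each other with the brightest probe set of each gene, 45 pairs over 16 lambs with group means removed. The median r was 0.05, and 0 of 45 passed after adjustment by Pearson or Spearman (4 at an unadjusted permutation p under 0.05 for r). The highest was VEGFA with FLT1 (r = 0.62, permutation p = 0.0098, adjusted p = 0.386; rho = 0.45, permutation p = 0.0821, adjusted p = 0.526), with r = 0.60 without the 2 farthest lambs. Within groups it was -0.25 in control and 0.79 in shunt lambs, a difference that was not tested. The lowest was VEGFB with PGF (r = -0.57, permutation p = 0.0209, adjusted p = 0.386; rho = -0.58, permutation p = 0.0198, adjusted p = 0.526), with r = -0.59 without the 2 farthest lambs and values of -0.51 in control and -0.70 in shunt lambs.

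The genes most like each member over the 16 arrays with group means removed, among about 13290 single-symbol probe sets of other genes, are given as a description, since the highest of so many correlations is high by selection. VEGFA was most like SHTN1 (r = 0.81, rho = 0.79) and PAXBP1 (r = 0.75). VEGFD was most like ANGPT1, the stabilising ligand of the TEK receptor (r = 0.84, rho = 0.78), and OGN, a small matrix proteoglycan (r = 0.83, rho = 0.90). PGF was most like COL4A1, a basement membrane collagen chain (r = 0.84, rho = 0.73), and C16H1orf21 (r = 0.83). NRP2 was most like C1R, a complement protease (r = 0.87), and TMEM45A (r = 0.86). The first 2 in order for VEGFC were ABITRAM (0.91) and PDCD5 (0.91), for VEGFB TARS2 (0.89) and VTI1B (0.84), and for NRP1 C2CD5 (0.89) and SVIL (0.88). For the receptors they were MMAA (0.89) and TSPAN15 (0.81) with FLT1, MID1 (0.83) and TAC1 (0.77) with KDR, and KCNIP2 (0.85) and ACD (0.78) with FLT4.

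Other genes of the pathway were taken from 6 lists, of which 96 of 147 genes had a probe set of their own symbol, 163 probe sets in all. Of these 1 was called higher and 0 lower. With p left unadjusted, 22 (13.5%) had p under 0.05 with shunt higher and 13 (7.98%) with shunt lower, beside 6.42% and 7.32% over all probe sets (0.0666% and 0.00416% called). The lists were chosen with earlier results of these data known, and some genes have several probe sets. These shares are therefore a description and no evidence of an excess. The called probe set was SULF2, an extracellular enzyme that trims heparan sulfate, the sugar that holds VEGF isoforms in the matrix. It rose from 6.51 ± 0.12 (SD, n = 8) to 6.88 ± 0.10, by 0.37 ± 0.06 (SE, limma adjusted p = 0.0195). It was also called after each of the 3 other scalings, and its call was lost without control replicate 5 or without shunt replicate 2, 3, 5 or 8. In the same list of 19 probe sets for ligand processing and matrix retention, the heparin-binding factor PTN was at 0.64 ± 0.18 and the VEGF-binding matrix protein CCN2 at 0.38 ± 0.18, neither past the threshold (limma adjusted p = 0.198 and 0.365).

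Proteins that modulate the receptors at the membrane had a median difference of 0.11 log2 over 25 probe sets, beside -0.01 over all probe sets. Of the 25, from 15 of 24 genes, 19 were higher, beside 10784 of 24016 over all probe sets. An unadjusted p under 0.05 was reached by 8 with shunt higher and 1 with shunt lower, and 0 were called (limma). Over all probe sets the unadjusted shares were 6.42% higher and 7.32% lower. The smallest p belonged to the integrin subunit ITGAV (0.44 ± 0.11, SE, limma adjusted p = 0.141), the chloride channel family protein CLIC4 (0.32 ± 0.09, limma adjusted p = 0.185) and the endocytic adaptor DAB2 (0.45 ± 0.13, limma adjusted p = 0.210). Another DAB2 probe set was at -0.05, another of ITGAV at 0.26, and the other CLIC4 probe sets were at 0.09, 0.25 and 0.10. Without shunt replicate 1, 2 of the 25 were called higher, and without control replicate 2, 0 were.

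Semaphorins and plexins, which share the neuropilins with VEGF, pointed the other way. All 9 of their probe sets, from 4 of 12 genes, were lower in shunt, beside 13232 of 24016 over all probe sets. SEMA3B was the only semaphorin gene among the 4, and the rest were the plexins PLXNA2, PLXNA3 and PLXNA4. The 9 had a median of -0.14 log2, with 4 at an unadjusted p under 0.05 and 0 called (limma). Over all probe sets 7.32% were lower at that level. The list was led by SEMA3B (-0.16 ± 0.06, limma adjusted p = 0.259) and both probe sets of PLXNA4 (-0.15 and -0.18). Control replicate 2 had the highest mean level of the list, and without it 8 of 9 were lower with a median of -0.12. After cyclic loess or without shunt replicate 1, 8 of 9 were lower as well. The 4 with an unadjusted p under 0.05 became 3 without control replicate 2, 2 without shunt replicate 1, 2 after cyclic loess or a second quantile normalization, and 1 with array medians centred.

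Signalling proteins below the receptors had a median of 0.02 log2 over 46 probe sets, of which 5 had an unadjusted p under 0.05 with shunt higher, 3 with shunt lower and 0 were called (limma). The kinase FYN was at 0.20 ± 0.06 and the adaptor SHC1 at 0.19 ± 0.06 (its other probe sets at -0.07 and 0.08). A dim probe set of the kinase MAP2K2 (mean 5.66) was at -0.22 ± 0.07. The brightest MAP2K2 probe set (mean 9.31) was at 0.02, and the remaining ones were both at -0.12. Genes that VEGF is known to induce in endothelium had a median of -0.05 over 30 probe sets, with 3 higher and 2 lower at that level and 0 called. ANGPT2 was at 0.66 ± 0.13 (limma adjusted p = 0.0609), NOS3 at 0.36 ± 0.13 and the dim BCL2 probe set at -0.30 ± 0.09, where control replicate 2 read 6.20 against 5.52 for the next control. Regulators of VEGFA had a median of -0.0045 over 34 probe sets, with 4 higher and 3 lower at that level and 0 called. The oxygen-regulated transcription factor subunit HIF1A was at 0.20 ± 0.06 (limma adjusted p = 0.235). The AP-1 subunit JUN was at -0.27 ± 0.05 (limma adjusted p = 0.0592) and -0.23 ± 0.08 with its 2 probe sets of smallest p (the other JUN probe sets from -0.39 to -0.04).

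**Figure D4:**
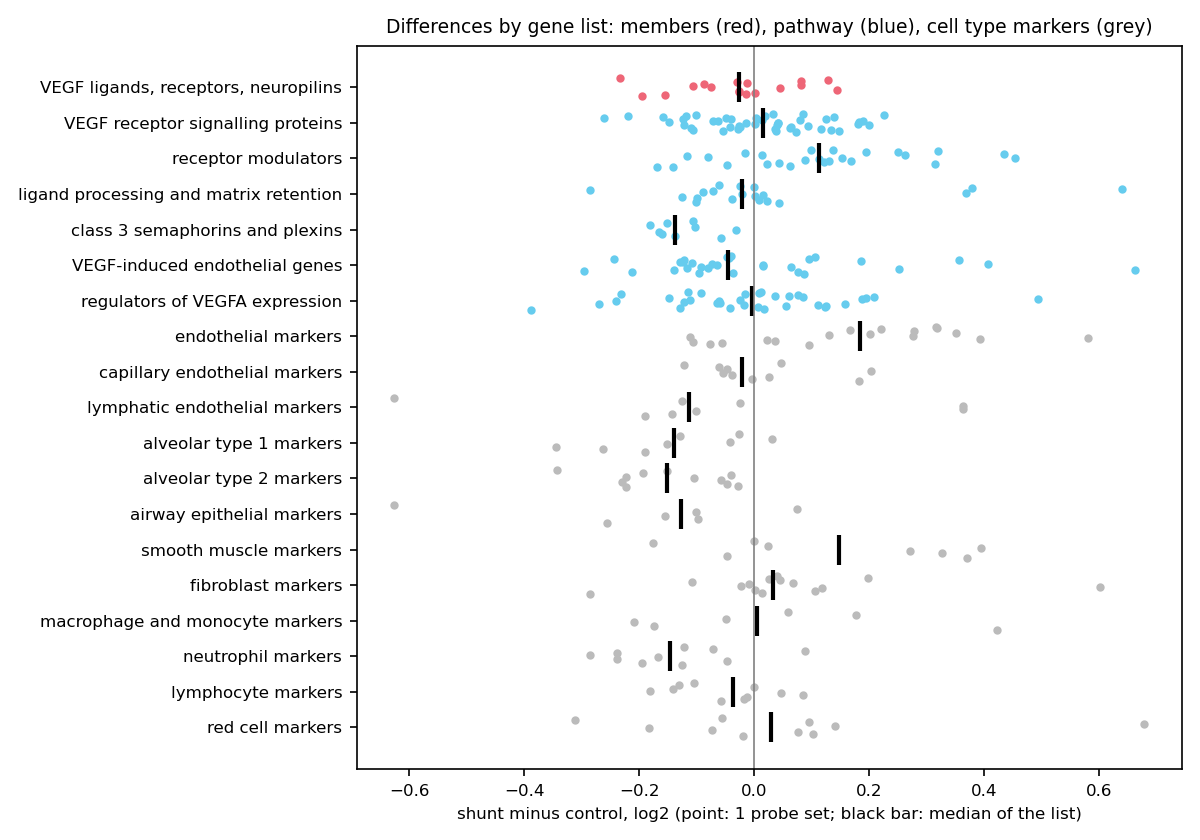
Shunt minus control difference (log2, horizontal axis) of every probe set, 1 point each, in the VEGF family (red), the 6 pathway lists (blue) and the 12 cell type marker lists (grey), with black bars for list medians. The VEGF family median is -0.03, between the receptor modulators at 0.11 and the semaphorins and plexins at -0.14.

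Markers of the cells that make or receive VEGF were read beside the members. Endothelial markers had a median difference of 0.18 log2 over 18 probe sets of 13 genes. Shunt was higher in 14 and lower in 4, beside 10784 and 13232 of all 24016 probe sets. The 4 were CLDN5 and a VWF probe set (both -0.11), an ERG probe set (-0.08) and EGFL7 (-0.06). The other VWF and ERG probe sets were at 0.04 and 0.10. With shunt higher, 9 had an unadjusted p under 0.05, beside 6.42% of all probe sets. Of the 18, 1 was called, beside 0.0666% called higher of all probe sets. It was a PECAM1 probe set (0.35 ± 0.06, limma adjusted p = 0.0384). That call was lost after cyclic loess (limma adjusted p = 0.0585), after a second quantile normalization (0.0716), and when control replicate 1, 3, 5 or 7 was left out, or shunt replicate 2, 3, 4, 5, 6 or 8. Their mean level ran from 8.90 to 9.09 in control and from 9.02 to 9.36 in shunt lambs. Capillary markers had a median of -0.02 over 10 probe sets, which was 0.03 without control replicate 2. Lymphatic markers had a median of -0.11 over 8 (-0.17 without shunt replicate 1). Their 2 probe sets with an unadjusted p under 0.05, PDPN and TFF3, also stand in the type 1 and airway lists, and the lymphatic chemokine CCL21 and the vessel protein MMRN1 were each at 0.36. Alveolar type 1 markers had a median of -0.14 over 8 probe sets, with mean levels from 10.92 to 11.50 in control and from 10.93 to 11.24 in shunt lambs, and type 2 markers -0.15 over 11, with 0 higher. AQP5 at -0.26 ± 0.06 and SFTPB at -0.23 ± 0.09 had the smallest p of the alveolar lists (limma adjusted p = 0.115 and 0.271). Another SFTPB probe set was at -0.05.

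Smooth muscle markers had a median of 0.15 over 8 probe sets, fibroblast markers 0.03 over 14, macrophage markers 0.00 over 6, neutrophil markers -0.15 over 10, lymphocyte markers -0.04 over 10, airway markers -0.13 over 6 and red cell markers 0.03 over 10. Without control replicate 2 the macrophage median was -0.08, with 2 of 6 lower at an unadjusted p under 0.05 (0 with all arrays), and the fibroblast median 0.06. Without shunt replicate 1 these medians were -0.0023 and 0.06. Their probe sets of smallest p were TPM2 (0.37), LUM (0.60), CD14 (0.42), ELANE (-0.24), CD79A (-0.18), TFF3 (-0.63) and HBB (0.68), 0 of them called (limma). Other probe sets of HBB were at -0.31, -0.06 and 0.10, that of TPM2 at -0.05 and that of CD14 at 0.18. Shunt was lower in 3 of 8 smooth muscle probe sets (CNN1 at -0.18), 4 of 14 fibroblast (DCN at -0.29) and 3 of 6 macrophage (C1QB at -0.21). It was higher in 1 of 10 neutrophil, 3 of 10 lymphocyte, 1 of 6 airway and 5 of 10 red cell probe sets. The part of these cell types in the VEGF values was not tested in a fit.

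Each receptor was then expressed relative to the endothelial marker mean of the same array, and VEGFA relative to the type 1 marker mean, 6 values chosen after the differences had been seen. Relative to endothelial markers FLT4 differed by -0.18 log2, with 8 of 8 shunt lambs below the control mean (exact permutation p = 0.0323, adjusted p = 0.194), and p was 0.0528 without control replicate 2 (exact permutation). FLT1 was at -0.12, KDR at -0.09, NRP1 at -0.09 and NRP2 at -0.04 relative to the same markers, with exact permutation p from 0.184 to 0.628. VEGFA relative to type 1 markers was at -0.06 (exact permutation p = 0.617), against -0.20 on its own. Such a ratio shows unequal change and does not say which side moved. The type 1 mean was itself lower in shunt (11.20 in control, 11.06 in shunt) and the endothelial mean higher (8.99 and 9.16). Subtracting them shifts each difference by construction. None of the 6 passed after adjustment. Over 50 correlations of a member with a marker list mean, 0 passed after adjustment (6 at an unadjusted permutation p under 0.05 for r). The highest were NRP1 with type 1 markers (r = 0.69, permutation p = 0.00265, adjusted p = 0.117; rho = 0.61, permutation p = 0.0126, adjusted p = 0.235) and NRP2 with fibroblast markers (r = 0.65, permutation p = 0.00671, adjusted p = 0.117; rho = 0.57, permutation p = 0.0235, adjusted p = 0.235). Without the 2 lambs farthest from the median they were 0.40 and 0.47. The type 1 mean, used for VEGFA as well, includes CAV1 (probe sets at -0.04 and 0.03) and PDPN, which is also in the lymphatic list. The part of CAV1 and PDPN in these values was not tested. VEGFD with fibroblast markers was next (r = 0.65, permutation p = 0.00701, adjusted p = 0.117; rho = 0.74, permutation p = 0.00122, adjusted p = 0.0610), with r = 0.58 without the 2 farthest lambs. For VEGFA, r was -0.05 with type 1 markers (permutation adjusted p = 0.952) and 0.39 with type 2 markers (permutation adjusted p = 0.483).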

How the data were processed

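Values were log2 signals as the authors deposited them, 1 for each probe set on an array. The submitters' processing notes name RMA, which corrects background, brings arrays to common quantiles and summarizes probes. Biotin-labelled cRNA came from 1 ug of total RNA, per the labels' protocols. Scanner files were not used here, so signal over background is unknown, and the number of arrays limits the precision. Of 24128 probe sets, 112 manufacturer controls were left out of tests. Of the rest, 13292 had 1 symbol, 86 several and 10638 none. All 10 member genes were found in a table of sheep genes, whose positions were not used.

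The shunt and control arrays were tested in R 4.3.3 by limma 3.58.1 (lmFit, eBayes, no covariate, two-sided, Benjamini-Hochberg over 24016 probe sets, threshold 0.05). Exact permutation tests ran over 12870 divisions of the lambs, with 0.000155 as the smallest p, and correlations used 100000 permutations. Intervals are 95%. Named genes were every member, up to 3 probe sets of smallest p per list and the 2 most alike genes per member. The members and lists were chosen with earlier results of these data known. The ratios to markers and the marker correlations were added after seeing the values. The fits were tested on simulated data. Alternatives were other scalings, weights, covariates and priors, a replicate block, a filter on dim probe sets, a threshold of 0.10 and each array left out. Plots used matplotlib 3.10.9 in Python 3.11.15.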

Additional observations from a re-analysis of the deposited data

Results flagged for a closer look

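In 14 of 238 sets of 8 values the most extreme lamb was far from its neighbour (the ratio is that gap over the whole range). About 12 such sets would arise by chance, and control replicate 2 made up 7. Among the 34 sets of member values 2 were found. VEGFD probe set 1 in control replicate 5 was 9.11 against 8.72 for the next lamb (ratio 0.547), and PGF in shunt replicate 1 was 6.89 against 7.22 (ratio 0.554).

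Control replicate 2 had the lowest mean correlation with the other arrays (0.983, ratio 0.774) and the highest poly-A control level (4.51, ratio 0.726). It was highest among controls for a PLXNA4 probe set (7.26, ratio 0.596), the BCL2 probe set (6.20, ratio 0.845) and the semaphorin and plexin mean level (7.29, ratio 0.537). It was lowest for C1QB (8.78, ratio 0.566) and ABITRAM (7.96, ratio 0.579). ABITRAM was selected for its likeness to VEGFC, which was also lowest there, so this is no separate observation.

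DAB2 was lowest in control replicate 3 (8.13, ratio 0.609) and in shunt replicate 1 (8.52, ratio 0.543). SHTN1, the gene most like VEGFA, was highest among controls in replicate 8 (10.24, ratio 0.558) and lowest among shunt lambs in replicate 6 (9.53, ratio 0.576). These were the lambs with the highest and the lowest VEGFA. SHTN1 was selected for its likeness to VEGFA over these same arrays, so the match is no separate observation. Neutrophil markers were highest in control replicate 7 (mean level 6.54, ratio 0.641).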

How the results depend on the processing

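The count of 0 VEGF family probe sets called held under every alternative run, among them the replicate block, a threshold of 0.10, 3 other scalings and each array left out. Same-numbered lambs had correlations of deviations from -0.26 to 0.22, and 0 of 8 control lambs matched its own number best. No pairing by number was seen, but so few lambs cannot exclude a weak one. With the replicate block 0 of all probe sets and 0 pathway probe sets were called (limma adjusted p = 0.146 for SULF2 and 0.101 for the PECAM1 marker), and 1 probe set pair differed (NRP2, limma adjusted p = 0.0159, against 0.0710 without the block). All probe sets called were 55 at a threshold of 0.10, 10 after quantile normalization again, 26 with centred medians, 45 with array weights, 28 with the 3' minus 5' covariate, 39 without control replicate 2 and shunt replicate 1 together (added after seeing the data), and 6 to 75 with 1 array left out (75 without shunt replicate 1). Pathway probe sets called were 3 at 0.10, 2 without the dimmest 25%, with array weights or with a trended robust prior, and 0 to 4 with 1 array left out. The sign turned for VEGFB with centred medians (0.0082; -0.058 to 0.041 with 1 array left out), and for VEGFC after quantile normalization (-0.025), cyclic loess (-0.020), array weights (-0.020) and without both lambs (-0.048; -0.077 to 0.057). It turned for VEGFD probe set 1 with array weights (0.029) and without both lambs (0.029; -0.102 to 0.037), and for probe set 2 with 1 array left out (-0.057 to 0.011). FLT4 probe set 1 turned after quantile normalization (0.015), centred medians (0.0099) and cyclic loess (0.024; -0.057 to 0.029), and probe set 2 with 1 array left out (-0.050 to 0.0027). The cause was not tested. VEGFA probe set 1 stayed lower in all alternatives run, from -0.24 (cyclic loess) to -0.15 (without shunt replicate 6).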
